A study of Mus musculus with 11 samples.

Results

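The EGF receptor family and its ligands were described here as 10 named genes, 4 receptors (Egfr, Erbb2, Erbb3 and Erbb4) and 6 ligands (Areg, Ereg, Hbegf, Tgfa, Egf and Btc), of 23255 genes measured in the lungs of C57BL/6 mice. They were chosen by name because osimertinib inhibits EGFR, the protein encoded by Egfr. All 10 had values. Total RNA was depleted of ribosomal RNA and sequenced in 11 libraries. Of these, 5 came from mice given osimertinib after naphthalene, 3 from mice given naphthalene and 3 from untreated control mice. Naphthalene is a toxicant that injures club cells, the secretory cells of the airway. The mice of the osimertinib group thus also carried the naphthalene injury, so osimertinib against naphthalene is the comparison that differs by the inhibitor, and osimertinib against control differs by both agents. Dose, time, age and sex are not stated in the labels, nor whether replicates were separate animals. The p-values therefore reflect sample-to-sample spread, part of which could be technical. Below, n counts libraries, also where they are called lungs.

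In this family a ligand binds the outside of a receptor, receptors pair, and their kinase domains phosphorylate each other, which starts signals through the RAS-ERK, PI3K-AKT and STAT pathways. Areg, Hbegf, Tgfa, Egf, Ereg and Btc encode membrane-bound precursors that metalloproteases cut free from the cell surface. In lung these signals are known for the growth and repair of airway and alveolar epithelium.

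Osimertinib binds the EGFR kinase by a covalent bond to a cysteine at the edge of the ATP pocket. The stretch of coding sequence around that codon is shown for the 4 receptors because it is where the drug attaches and where the receptors differ. Each stretch has 27 bases in the sense direction, with the codon in capitals, and lies within exon 20 of the transcript used (GENCODE M21 annotation of GRCm38).
Egfr: atgccctacggtTGCctcctggactac
Erbb2: atgccctatggcTGCcttctggaccat
Erbb3: ttgcctctgggcTCTctccttgatcat
Erbb4: atgccgcatggcTGCctactggactat
The Egfr stretch lies on the plus strand at chr11:16896987-16897013, and its capital codon is residue 799, a cysteine. The Erbb2 stretch lies on the plus strand at chr11:98433985-98434011, with a cysteine at residue 806, and matches Egfr at 22 of 27 bases. The Erbb4 stretch lies on the minus strand at chr1:68198908-68198934, with a cysteine at residue 803, and matches Egfr at 21 bases. The Erbb3 stretch lies on the minus strand at chr10:128572825-128572851, has a serine at residue 792, and matches Egfr at 15 bases. Erbb3 is the member of the family known for a kinase domain with little activity of its own.

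The libraries held between 5045361 and 13009975 reads assigned to genes. One gene without a name in the annotation used (ENSMUSG00000119584) took 43.9% to 60.3% of the reads in naphthalene 1 to 3 and osimertinib 2, and at most 0.0337% in the other 7 libraries. Outside that gene the 4 libraries held 2018541 to 2965328 reads and the other 7 held 8418669 to 13006929. A single read was therefore worth 0.265 to 0.459 units of the normalised value in the 4 libraries and 0.0568 to 0.0891 in the rest. All naphthalene libraries and no control library had this high share, so in naphthalene against control it cannot be told apart from the treatment. In osimertinib against naphthalene it is nearly tied to the group as well. There only osimertinib 2 shares it with the naphthalene libraries. Osimertinib 3 lay apart from the other libraries on the first principal component (at -72.7, against -26.2 to 29.2 for the other 10). The lung label was met by its markers: Sftpc of alveolar type 2 cells was at least 5940, Ager of alveolar type 1 cells at least 577 and Scgb1a1 of club cells at least 1740 in every library. These values, and those below, are the deposited normalised values (CPM of a scaled library size).

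Per kilobase of transcript, the receptors and ligands spanned a wide range of levels in lung. Erbb3 had the highest mean over the 11 libraries, at 10.1 ± 1.31 per kb (SD), followed by Hbegf at 9.30 ± 1.72, and these neighbours overlapped. Erbb2 was next at 6.26 ± 0.474, below every Hbegf value. Egfr followed at 3.92 ± 0.676, below every Erbb2 value. Tgfa at 3.63 ± 0.634 and Areg at 3.11 ± 2.52 overlapped with Egfr and with each other. Btc was lower at 0.705 ± 0.343, and its highest library (1.24) passed the lowest Areg library (1.02). Egf at 0.139 ± 0.0599, Ereg at 0.0480 ± 0.0655 and Erbb4 at 0.0412 ± 0.0273 were lowest, and overlapped. The place of Hbegf depended on the length used: with all exons merged in place of the transcript with the longest coding sequence, it averaged 4.57 ± 0.847 per kb, below Erbb2 at 6.02 ± 0.456. In all 3 groups Erbb3 or Hbegf led, and the order of levels in the naphthalene group rests on fewer reads.

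**Figure D1:**
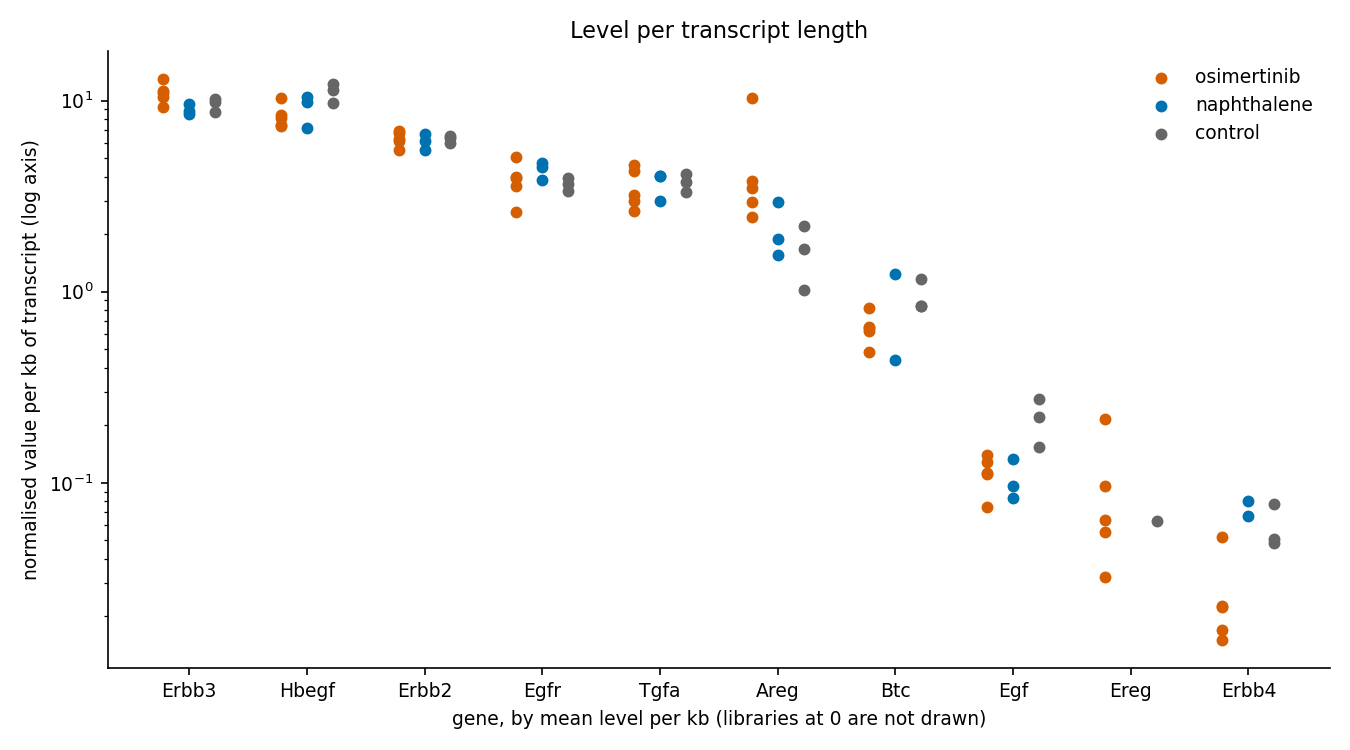
Normalised value per kilobase of transcript (log axis) of each member, ordered by its mean over the 11 libraries, with 1 point per library coloured by group. Erbb3 and Hbegf lie highest (means of 10.1 and 9.30), Egf, Ereg and Erbb4 lie lowest, and libraries at 0 are not drawn.

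Differences between groups were tested with limma on log2(value + 1) over the 16225 genes whose mean was at least 1, with Benjamini-Hochberg adjustment over all of them and a threshold of 0.05. Of the 10 members 7 reached that mean, and Erbb4, Ereg and Egf did not. None of the 7 passed the threshold in any comparison, with limma, edgeR or DESeq2, although DESeq2 gave no adjusted p for Areg, Hbegf, Tgfa and Btc in naphthalene against control. The smallest limma adjusted p among members was 0.399 in osimertinib against naphthalene, 0.732 in naphthalene against control and 0.773 in osimertinib against control. Of all genes tested limma called 0% in osimertinib against naphthalene and in naphthalene against control, and 0.00616% in osimertinib against control (1 gene, Mmp2, named after its value was seen). At an unadjusted p under 0.05 there was 1 member in osimertinib against naphthalene (Erbb3), where 10.3% of all genes lay, 0 in naphthalene against control, where 7.46% lay, and 2 in osimertinib against control (Areg and Hbegf), where 4.80% lay. Between osimertinib and naphthalene 0 of the 7 members had groups that did not overlap, where 5.94% of all genes tested did, and between naphthalene and control 0 of 7, where 16.2% did. The median difference of the 7 members was 0.0498 in osimertinib against naphthalene (0.0582 for all genes tested), -0.0464 in naphthalene against control (-0.0639) and 0.00333 in osimertinib against control (-0.00821). Because this is bulk tissue, fewer cells of a type and less RNA per cell cannot be told apart in any of these values.

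**Figure D2:**
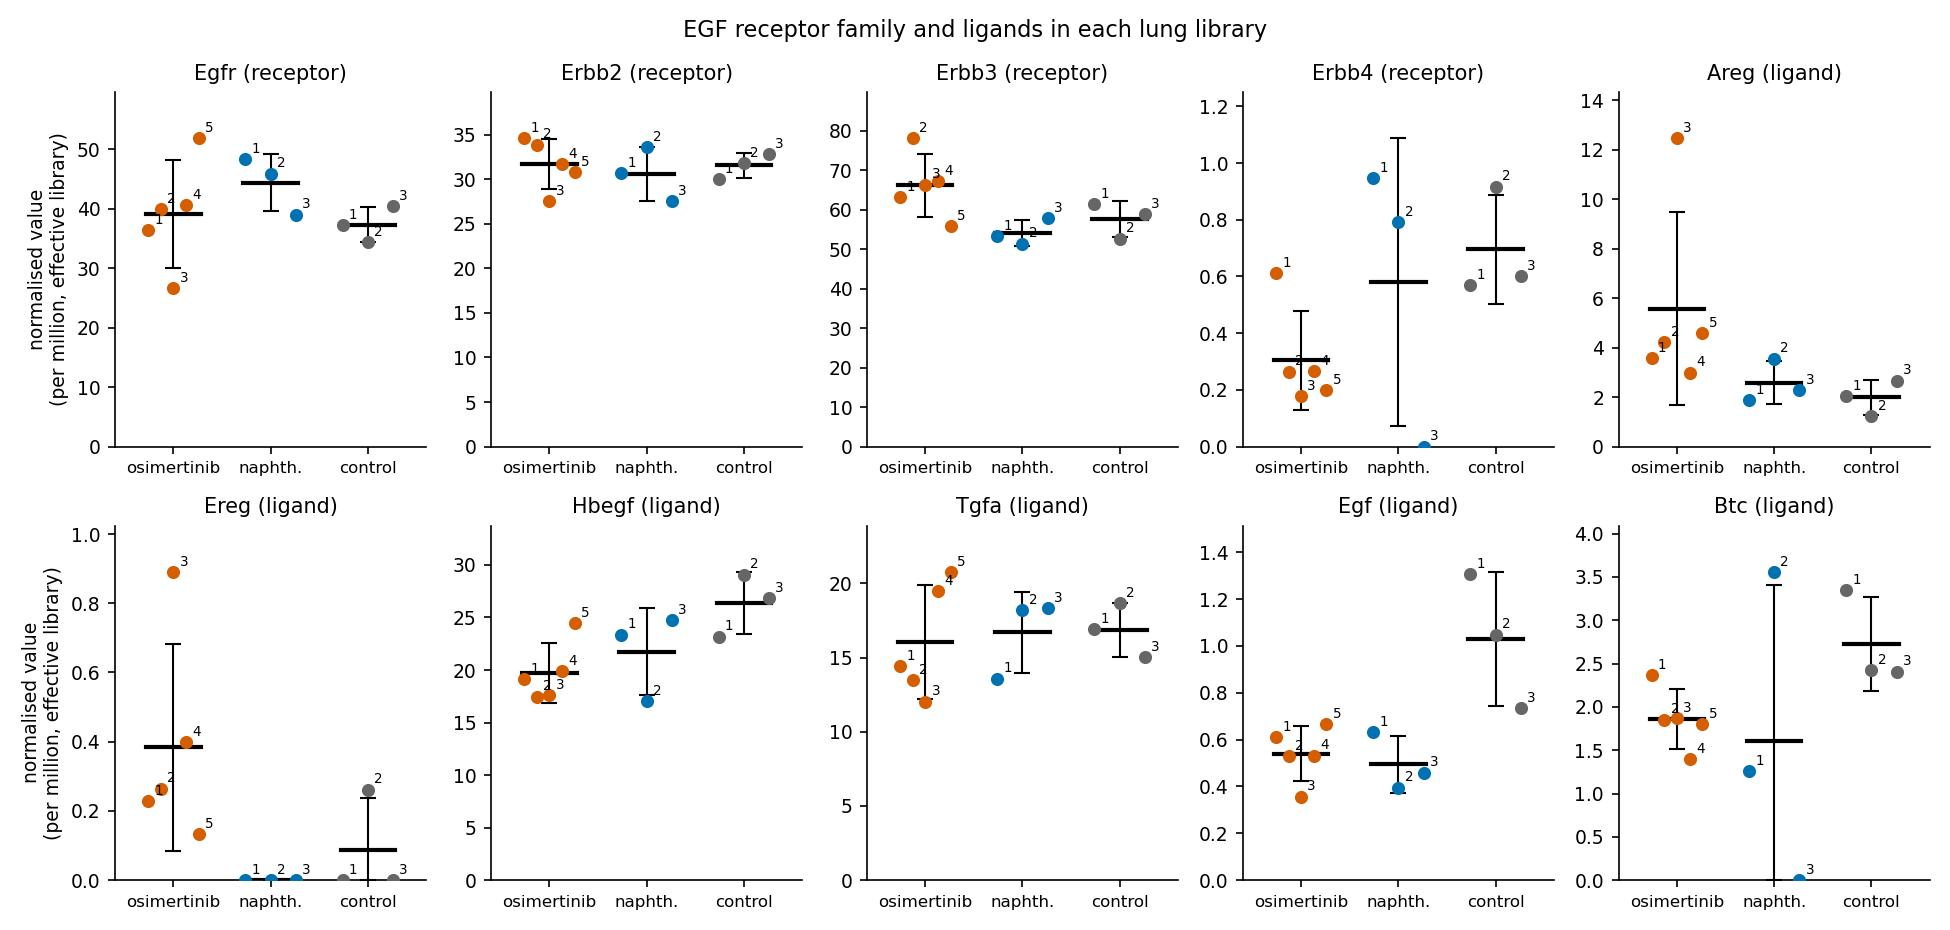
Normalised value of each member in each library, numbered by replicate, with the group mean (line) and SD (bars, not drawn below 0). The axes start at 0 and differ between panels. Areg of the 5 osimertinib libraries (2.99 to 12.5) lies above the 3 control libraries (1.24 to 2.67), and the points of Egfr, Erbb2 and Tgfa overlap between groups.

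Egfr, the receptor that osimertinib binds, had values of 36.4, 40.0, 26.6, 40.6 and 51.8 in osimertinib lungs, 48.3, 45.9 and 39.0 in naphthalene lungs and 37.3, 34.4 and 40.4 in control lungs. All 3 groups overlapped, and the osimertinib group held both the lowest and the highest library. The means were 39.1 ± 9.05 (SD, n = 5) in osimertinib lungs, 44.4 ± 4.82 (n = 3) in naphthalene lungs and 37.3 ± 3.00 (n = 3) in control lungs. Osimertinib against naphthalene gave a log2 difference of -0.20 (SE 0.17, 95% interval -0.57 to 0.16, limma adjusted p = 0.719). It was -0.0782 without osimertinib 3 and -0.312 without osimertinib 5. Against control, osimertinib lungs differed by 0.04 (SE 0.17, interval -0.33 to 0.40) and naphthalene lungs by 0.24 (SE 0.19, interval -0.17 to 0.65). The mRNA level of the drug's target thus did not differ between groups beyond the spread of these libraries.

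Erbb2, a receptor with no known ligand of its own that pairs with the others, varied least among the members tested, relative to its mean. It was at 34.6, 33.9, 27.5, 31.7 and 30.8 in osimertinib lungs, 30.6, 33.6 and 27.5 in naphthalene lungs and 30.0, 31.8 and 32.8 in control lungs. The groups overlapped closely, and the 3 log2 differences lay between -0.05 and 0.05, with intervals within -0.29 and 0.27. In the annotation Erbb2 shares 9 exon bases with Mien1 on the opposite strand, and Tgfa shares 118 with Gm43917, whose mean value was 0.184. The library kit kept strand, but whether the counting used it is not given in the sources used here.

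Erbb3, which binds neuregulins and passes its signal mainly through PI3K, was at 63.1, 78.1, 66.4, 67.2 and 55.9 in osimertinib lungs, 53.4, 51.4 and 57.8 in naphthalene lungs and 61.4, 52.6 and 58.8 in control lungs. Osimertinib 1 to 4 lay above every library of the other groups, and osimertinib 5 lay within them. The difference was 0.28 between osimertinib and naphthalene (SE 0.11, interval 0.04 to 0.51, limma unadjusted p = 0.0239, adjusted p = 0.399). Against control it was 0.19 (SE 0.11, limma unadjusted p = 0.0995). Among the libraries with the high read share, Erbb3 was 78.1 in osimertinib 2 and 51.4 to 57.8 in naphthalene 1 to 3.

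Erbb4, a receptor for neuregulins and for Hbegf and Btc, was near the lower limit of these libraries. It had 8, 1, 2, 4 and 3 reads in osimertinib lungs, 3, 2 and 0 in naphthalene lungs and 10, 14 and 9 in control lungs. The matching values were 0.611, 0.265, 0.178, 0.266 and 0.200 in osimertinib lungs, 0.947, 0.791 and 0 in naphthalene lungs and 0.568, 0.917 and 0.602 in control lungs. The groups overlapped, with 4 of 5 osimertinib libraries under the lowest control library. With no filter on low values the difference between osimertinib and control was -0.38 (SE 0.21, limma adjusted p = 0.9999).

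Areg encodes amphiregulin, an EGFR ligand known from airway epithelium and from immune cells that take part in tissue repair. It had the largest difference among the members tested in osimertinib against naphthalene and in osimertinib against control. Its values were 3.59, 4.24, 12.5, 2.99 and 4.60 in osimertinib lungs, 1.89, 3.56 and 2.29 in naphthalene lungs and 2.05, 1.24 and 2.67 in control lungs. These rest on 47, 16, 140, 45 and 69 reads in osimertinib lungs, 6, 9 and 5 in naphthalene lungs and 36, 19 and 40 in control lungs. Every osimertinib library lay above every control library, and osimertinib 4 alone lay below the highest naphthalene library. Of the 7 members tested, Areg was the 1 that lay wholly above control in osimertinib lungs, where 2.91% of all genes tested did.

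The Areg means were 5.58 ± 3.90 (SD, n = 5) in osimertinib lungs, 2.58 ± 0.869 (n = 3) in naphthalene lungs and 1.99 ± 0.716 (n = 3) in control lungs. The difference between osimertinib and control was 1.01 (SE 0.35, interval 0.25 to 1.78, limma unadjusted p = 0.0139, adjusted p = 0.773). Against naphthalene it was 0.75 (SE 0.35, interval -0.02 to 1.52, limma adjusted p = 0.494), and naphthalene against control gave 0.26 (SE 0.39, adjusted p = 0.945). Osimertinib 3 alone held 140 of the Areg reads, and without it the differences were 0.72 from control (limma adjusted p = 0.598) and 0.45 from naphthalene (adjusted p = 0.448). Without osimertinib 2, which leaves only libraries with a low read share in osimertinib against control, the difference was 1.06 (adjusted p = 0.999). Among the libraries with the high share, Areg was 4.24 in osimertinib 2 and 1.89 to 3.56 in naphthalene 1 to 3.

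Markers of other cell types also differed between these libraries. The summed value of 8 neutrophil markers was 674 in osimertinib 3 and 99.8 to 208 in the other osimertinib lungs, 495 in naphthalene 3 and 157 to 162 in the other naphthalene lungs, and 89.4 to 131 in control lungs. S100a8, a calcium-binding protein of neutrophils, was 131 in osimertinib 3 and 129 in naphthalene 3, where Areg was 12.5 and 2.29. In naphthalene 1 and 2 it was 9.79 and 4.75, against 7.35 to 15.7 in control lungs. Lcn2 made up most of the neutrophil sums of those 2 libraries. It was 94.1 to 124 in naphthalene lungs and 43.0 to 58.8 in control lungs. Group 2 innate lymphoid cells are an immune source known for amphiregulin. Their 6 markers with values, other than Areg, summed to 67.9 to 97.2 in osimertinib lungs. The sums were 85.8 to 90.9 in naphthalene lungs and 75.2 to 89.0 in control lungs, and osimertinib 3 had the lowest. Rora, with a mean of 63.0 over the 11 libraries, made up most of these sums. Il1rl1 was 3.99 to 5.82 in osimertinib lungs and 3.21 to 3.96 in naphthalene lungs. Il7r went the other way, at 7.48 to 12.1 and 12.3 to 15.8. Between these groups 5.94% of all genes tested did not overlap. In osimertinib 3, Gata3 (4.99) and Il7r (7.48) were the lowest of the osimertinib lungs, and Il1rl1 was 5.26. The 5 mast cell and basophil markers with values summed to 144 to 222 in osimertinib lungs. Their sums were 145 to 169 in naphthalene lungs and 185 to 213 in control lungs. Kit and Gata2 made up nearly all of these sums, with means of 117 and 69.5 over the 11 libraries. Ms4a2 and Tpsb2 averaged 0.172 and 0.232, and Cpa3, a mast cell protease, was at most 0.468 in any library. The 10 markers of alveolar type 2 cells summed to 14700 to 28700 in osimertinib lungs, 13400 to 19900 in naphthalene lungs and 12300 to 13900 in control lungs. The 8 alveolar macrophage markers summed to 584 to 1100 in osimertinib lungs, 461 to 687 in naphthalene lungs and 471 to 484 in control lungs. Osimertinib 3 had the highest sum. Chil3, with a mean of 399 over the 11 libraries, made up most of these sums. By log2 difference 6 of the 8 were higher in osimertinib than in control lungs and 2 were lower. The part of these cell types in the Areg difference was not tested.

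Ereg, which encodes epiregulin, lies near Areg on chromosome 5 (GRCm38). It was found in 5 of 5 osimertinib lungs, with 3, 1, 10, 6 and 2 reads, against 0 reads in each of the 3 naphthalene lungs and 0, 4 and 0 reads in control lungs. Its values were 0.229, 0.265, 0.891, 0.399 and 0.133 in osimertinib lungs, 0, 0 and 0 in naphthalene lungs and 0, 0.262 and 0 in control lungs. Like Areg, it was highest in osimertinib 3. A count of 0 in a single naphthalene library allows a value of up to 0.947 to 1.38 (3 reads), which is above every osimertinib value. Taken singly, the naphthalene libraries are thus too shallow to show whether Ereg differed. A limit for the 3 libraries together would be lower and was not computed. The osimertinib values lay above the naphthalene values as listed, where 4.14% of all 23255 genes did, and with no filter the difference was 0.44 (SE 0.16, limma unadjusted p = 0.0149, adjusted p = 0.347), or -0.578 with equal totals. With no filter the difference between osimertinib and control was 0.33 (SE 0.16, limma adjusted p = 0.9999). Ereg shares 141 exon bases with Gm19610 on the opposite strand, which was not analysed here.

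Hbegf, the heparin-binding ligand of Egfr and Erbb4, was at 19.2, 17.5, 17.6, 19.9 and 24.5 in osimertinib lungs, 23.4, 17.0 and 24.8 in naphthalene lungs and 23.2, 29.1 and 26.9 in control lungs. Osimertinib 1 to 4 lay below every control library and osimertinib 5 did not, while the naphthalene lungs reached into both ranges. The means were 19.7 ± 2.83 (SD, n = 5) in osimertinib lungs, 21.7 ± 4.14 (n = 3) in naphthalene lungs and 26.4 ± 2.98 (n = 3) in control lungs. Osimertinib lungs differed from control by -0.41 (SE 0.15, interval -0.73 to -0.08, limma unadjusted p = 0.0181, adjusted p = 0.839) and from naphthalene by -0.13 (SE 0.15, adjusted p = 0.816). Naphthalene lungs differed from control by -0.28 (SE 0.17, adjusted p = 0.759). Without osimertinib 2, and so among libraries with a low read share, the difference between osimertinib and control was -0.37 (limma adjusted p = 0.999). The 8 endothelial markers summed to 1340 to 1670 in osimertinib lungs, 1370 to 1570 in naphthalene lungs and 1620 to 1720 in control lungs, and the 8 club cell markers to 4120 to 10800 in osimertinib lungs, 6760 to 11400 in naphthalene lungs and 13800 to 17000 in control lungs. Scgb1a1 made up most of the club cell sums in control lungs, with a mean of 11100 of 15000. By log2 difference, 6 of the 8 club cell markers were lower in naphthalene than in control lungs. Scgb3a1 (mean 128 against 94.9) and Muc5b (359 against 257) were higher. In osimertinib lungs the log2 difference from control was below 0 for all 8 (-0.01 for Scgb3a1). The part of these cell types in the Hbegf values was not tested.

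Tgfa, which encodes transforming growth factor alpha, was at 14.4, 13.5, 12.0, 19.5 and 20.8 in osimertinib lungs, 13.6, 18.2 and 18.4 in naphthalene lungs and 16.9, 18.7 and 15.0 in control lungs. The groups overlapped, and the log2 differences were -0.07 in osimertinib against naphthalene (interval -0.47 to 0.33), -0.02 in naphthalene against control (interval -0.47 to 0.42) and -0.09 in osimertinib against control (interval -0.49 to 0.30).

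Egf and Btc were low in every group. Egf, the ligand that gave the family its name, had 8, 2, 4, 8 and 10 reads in osimertinib lungs, 2, 1 and 1 in naphthalene lungs and 23, 16 and 11 in control lungs. Its values were 0.611, 0.529, 0.356, 0.532 and 0.666 in osimertinib lungs, 0.632, 0.396 and 0.459 in naphthalene lungs and 1.31, 1.05 and 0.735 in control lungs. Both treated groups lay below every control library, where 3.18% of all 23255 genes did so in osimertinib lungs and 12.6% in naphthalene lungs. With no filter the differences were -0.39 between osimertinib and control (SE 0.14, limma unadjusted p = 0.0178, adjusted p = 0.9999) and -0.43 between naphthalene and control (SE 0.16, adjusted p = 0.530). The second of these was 0.394 with libraries scaled to equal totals and taken relative to the median gene. The 1 or 2 reads of a naphthalene library make its value uncertain. Egf also shares 500 exon bases with 6330410L21Rik and 607 with Gm42697 on the opposite strand, which were not analysed here.

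Btc, which encodes betacellulin, a ligand of Egfr and Erbb4, was at 2.37, 1.85, 1.87, 1.40 and 1.80 in osimertinib lungs, 1.26, 3.56 and 0 in naphthalene lungs and 3.35, 2.42 and 2.41 in control lungs. The reads were 31, 7, 21, 21 and 27 in osimertinib lungs, 4, 9 and 0 in naphthalene lungs and 59, 37 and 36 in control lungs. Osimertinib lungs lay wholly below control, where 3.43% of all genes tested did, by a narrow gap (2.37 against 2.41). The difference was -0.38 (SE 0.37, interval -1.18 to 0.42, limma adjusted p = 0.9995). Naphthalene lungs held both the highest and the lowest Btc value, and differed from control by -0.77 (SE 0.41, limma adjusted p = 0.732). That difference was -1.3 without naphthalene 2 and -0.205 without naphthalene 3. A count of 0 in naphthalene 3 allows up to 1.38.

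**Figure D3:**
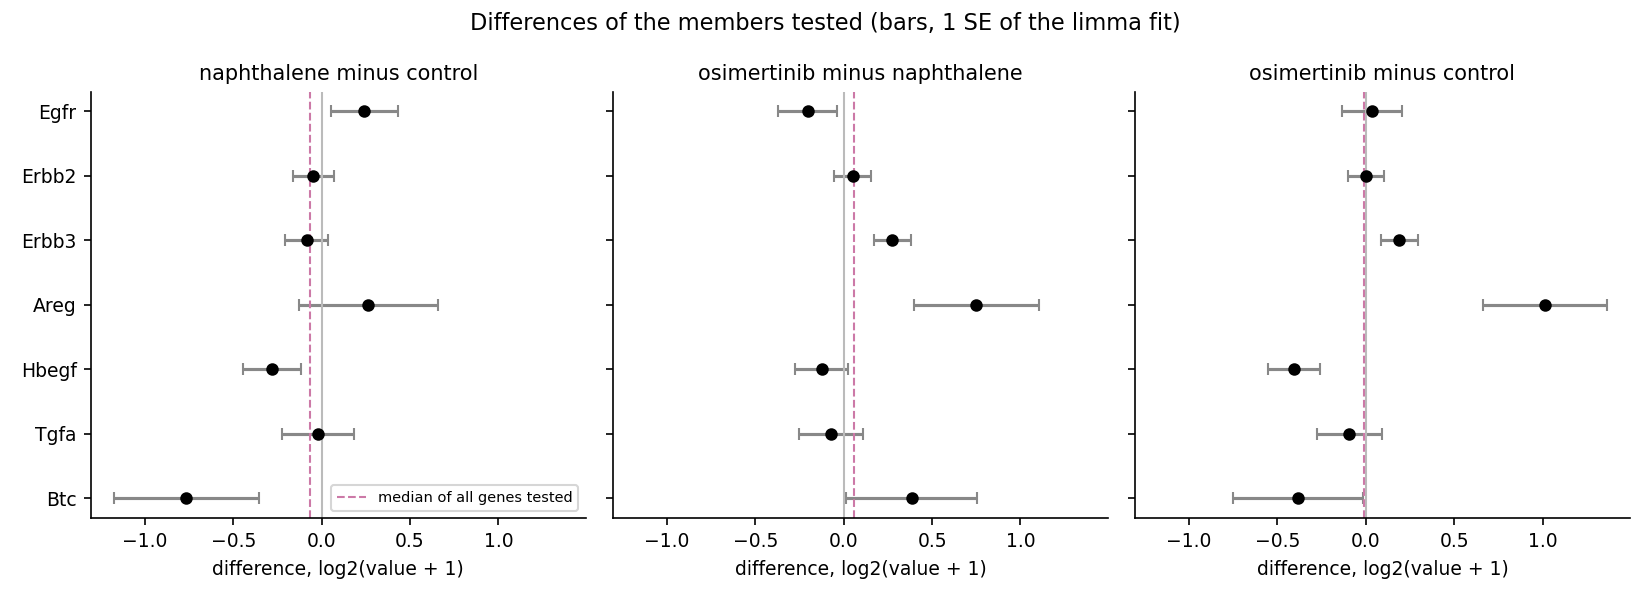
Difference in log2(value + 1) of the 7 members tested in naphthalene minus control, osimertinib minus naphthalene and osimertinib minus control, with bars of 1 SE from the limma fit. The dashed line is the median of all genes tested. Areg lies farthest to the right in osimertinib minus control (1.01) and Btc farthest to the left in naphthalene minus control (-0.77).

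The members were also set against each other inside each library, a measure that does not depend on how libraries were scaled. These shares were chosen after the values were seen and carry no test. Areg made up 19.4%, 23.8%, 48.2%, 15.6% and 19.4% of the summed ligand level per kb in osimertinib lungs, 10.4%, 19.0% and 11.5% in naphthalene lungs and 10.1%, 5.53% and 12.3% in control lungs. The osimertinib shares lay above all control shares, and naphthalene 2 lay among them. Hbegf made up 53.0%, 50.2%, 34.9%, 52.9% and 52.9% in osimertinib lungs, 65.7%, 46.4% and 63.3% in naphthalene lungs and 58.7%, 66.1% and 63.5% in control lungs. With these transcript lengths Hbegf was the leading ligand in 10 of 11 libraries, and Areg led in osimertinib 3.

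Among the receptors, Egfr made up 17.0%, 16.5%, 13.6%, 18.5% and 24.7% of the summed level per kb in osimertinib lungs, 23.9%, 22.7% and 20.2% in naphthalene lungs and 18.4%, 18.2% and 19.5% in control lungs. Naphthalene lungs lay above control lungs by a narrow gap (20.2% against 19.5%), and 4 of 5 osimertinib lungs lay below every naphthalene lung. The naphthalene shares rest on 85 to 153 Egfr reads per library. Such shares have no counterpart over all genes to set them against. Erbb3 made up 45.3% to 57.6% in osimertinib lungs, 43.1% to 50.8% in naphthalene lungs and 47.2% to 51.3% in control lungs. The log2 ratio of Erbb3 to Egfr was 0.794, 0.966, 1.32, 0.727 and 0.109 in osimertinib lungs, 0.143, 0.164 and 0.568 in naphthalene lungs and 0.719, 0.615 and 0.543 in control lungs. Osimertinib 5, with the highest Egfr of any library, had the lowest ratio.

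**Figure D4:**
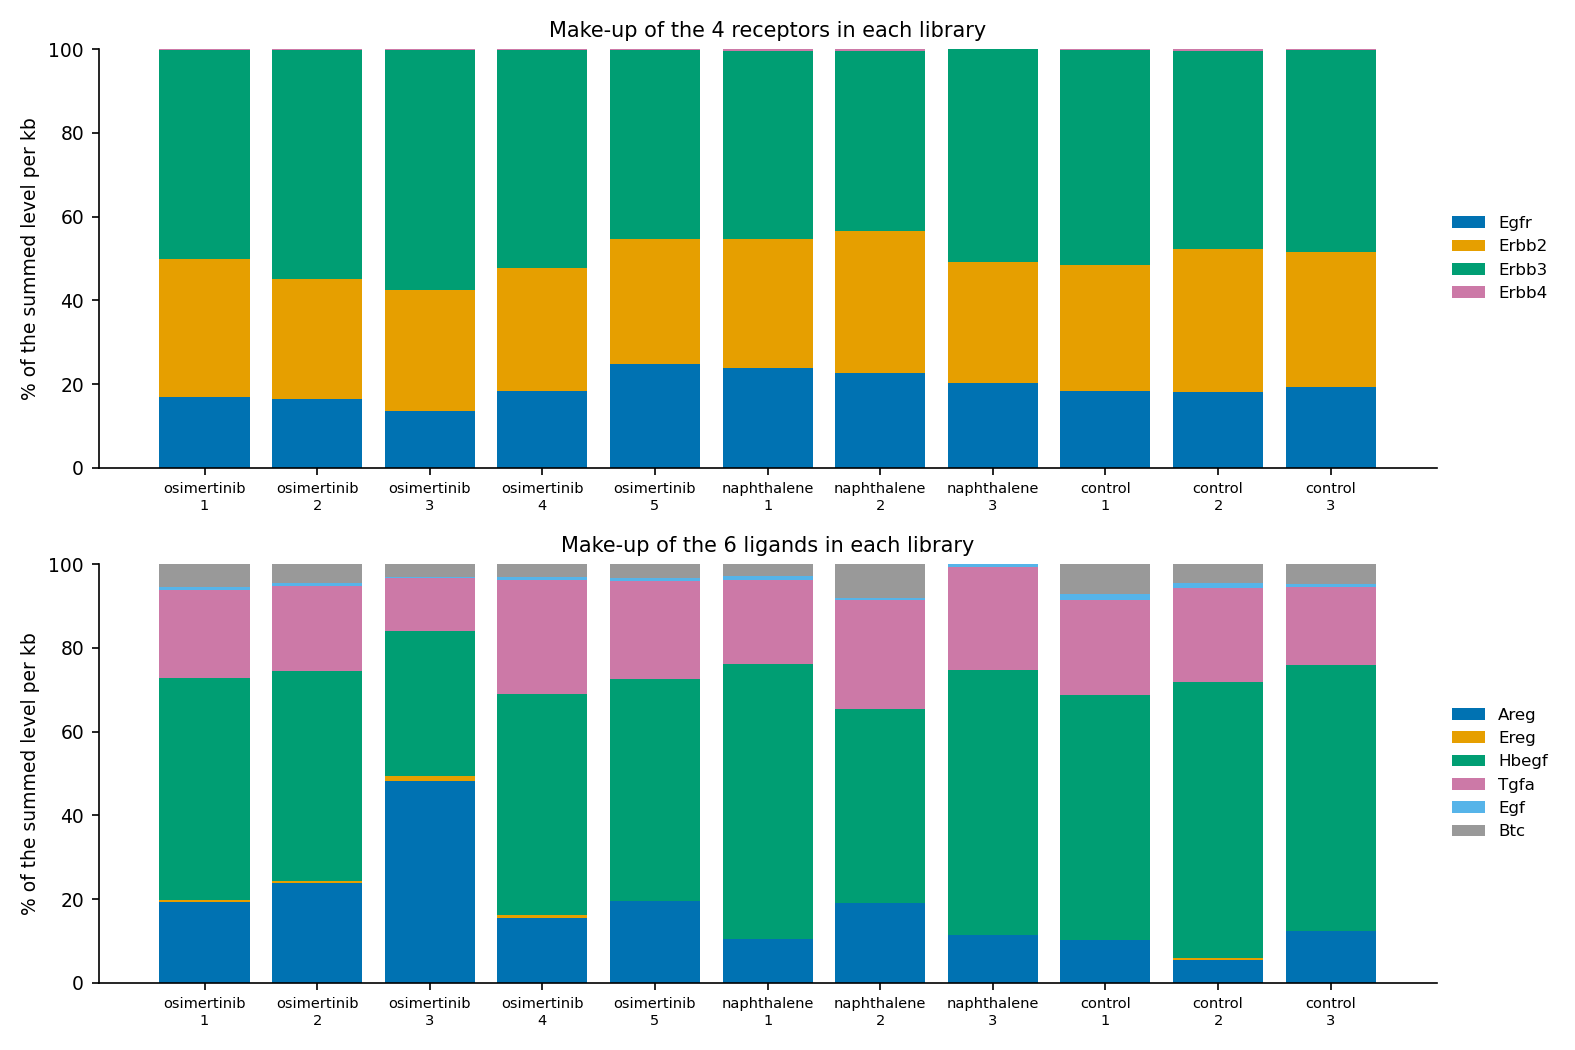
Make-up of the receptors (top) and of the ligands (bottom) in each library, as the percentage of their summed normalised value per kilobase of transcript. Areg takes 48.2% of the ligand level in osimertinib 3 and 5.53% to 23.8% in the other libraries, while Hbegf leads the ligands in the rest.

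For the 5 members with a mean of at least 5, the genes with the most similar profile over the 11 libraries were found among 11658 genes, by the root mean square difference of standardised log2(value + 1), where 0 would be an identical profile. Egfr was nearest to Acvr1 (0.318), Tmtc3 (0.349) and Gm47586 (0.373). Erbb2 was nearest to Pigt (0.357), Erbb3 to Slc41a1 (0.319), Hbegf to Fignl2 (0.295) and Tgfa to Ppp1cb (0.480). None of these was a member of the family. The values describe 11 libraries, of which 4 have the high read share described above, and carry no test.

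The rest of the pathway was described with 5 lists. Of their 58 tested genes, limma and edgeR called 0 in each comparison, and DESeq2 called 1 (Egr1, in osimertinib against control, where DESeq2 called 0.465% of all genes with an adjusted p). At an unadjusted limma p under 0.05, 4 were higher and 2 lower in osimertinib against naphthalene, where 10.3% of all genes tested had such a p. The counts were 2 higher and 4 lower in naphthalene against control (7.46% of all genes) and 4 higher and 2 lower in osimertinib against control (4.80%). Of the other ligands of the family, 3 of 5 had values, all neuregulins. Nrg1 had the highest normalised value (not per length), at 13.2 ± 2.51 (SD, n = 5) in osimertinib lungs, 11.6 ± 2.34 (n = 3) in naphthalene lungs and 13.7 ± 0.697 (n = 3) in control lungs. Nrg4, a ligand of Erbb4, was at 1.60 ± 0.347 in osimertinib lungs, 2.67 ± 1.05 in naphthalene lungs and 1.44 ± 0.116 in control lungs, with differences of -0.46 between osimertinib and naphthalene (SE 0.21, limma adjusted p = 0.470) and 0.55 between naphthalene and control (SE 0.23, adjusted p = 0.639). Nrg2 was at 3.78 ± 0.832 in osimertinib lungs, 3.74 ± 0.750 in naphthalene lungs and 4.73 ± 0.578 in control lungs, and differed by -0.28 between osimertinib and control (SE 0.19, adjusted p = 0.9995).

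All 7 genes of ligand shedding were tested, and their medians were 0.107 in osimertinib against naphthalene, -0.101 in naphthalene against control and 0.0149 in osimertinib against control. Adam17, the metalloprotease that frees Areg, Hbegf and Tgfa, was at 56.7 ± 3.77 in osimertinib lungs, 52.6 ± 2.05 in naphthalene lungs and 51.0 ± 3.22 in control lungs, and Adam10 at 90.3 ± 10.2 in osimertinib lungs, 95.2 ± 6.38 in naphthalene lungs and 88.7 ± 11.5 in control lungs. Rhbdf1, which encodes a partner of that protease (iRhom1), was at 26.0 ± 5.68 in osimertinib lungs, 19.8 ± 0.902 in naphthalene lungs and 26.3 ± 1.86 in control lungs, with a difference of 0.35 between osimertinib and naphthalene (SE 0.16, limma adjusted p = 0.486) and -0.39 between naphthalene and control (SE 0.18, adjusted p = 0.668). Both Rhbdf1 differences changed sign once the read share was a term of the fit, to -0.132 between osimertinib and naphthalene and 0.21 between naphthalene and control.

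The list of genes that restrain the receptors had 15 tested members, with medians of 0.0129 in osimertinib against naphthalene, -0.0516 in naphthalene against control and -0.0521 in osimertinib against control. Errfi1, which encodes the EGFR inhibitor MIG6, had the highest normalised value (not per length), at 164 ± 70.8 in osimertinib lungs, 116 ± 44.0 in naphthalene lungs and 105 ± 20.1 in control lungs. Its groups overlapped. Cblc, a ubiquitin ligase, was at 6.54 ± 2.33 in osimertinib lungs, 3.86 ± 1.78 in naphthalene lungs and 4.94 ± 1.28 in control lungs, and differed by 0.66 between osimertinib and naphthalene (SE 0.29, limma adjusted p = 0.454). The phosphatase gene Ptpn12 was at 71.5 ± 7.06 in osimertinib lungs, 69.2 ± 3.86 in naphthalene lungs and 59.4 ± 4.33 in control lungs. It lay wholly above control in osimertinib lungs, by 0.26 (SE 0.10, limma adjusted p = 0.869), where 2.91% of all genes did. The same held in naphthalene lungs, by 0.22 (SE 0.11, limma adjusted p = 0.709), where 4.94% of all genes did. Lrig2, a relative of the receptor inhibitor Lrig1, was at 30.4 ± 2.35 in osimertinib lungs, 28.1 ± 1.11 in naphthalene lungs and 33.1 ± 1.60 in control lungs. Naphthalene lungs lay wholly below control, by -0.23 (SE 0.10, limma adjusted p = 0.659), where 11.2% of all genes did.

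The 18 genes of adaptors and effectors had medians of 0.0463 in osimertinib against naphthalene, -0.06 in naphthalene against control and 0.00839 in osimertinib against control. Stat3, a transcription factor below these receptors, was at 138 ± 10.4 in osimertinib lungs, 119 ± 6.36 in naphthalene lungs and 118 ± 2.47 in control lungs. Grb7, an adaptor that binds Erbb2 and Erbb3, was at 24.3 ± 5.61 in osimertinib lungs, 16.0 ± 3.79 in naphthalene lungs and 20.1 ± 2.77 in control lungs, and differed by 0.57 between osimertinib and naphthalene (SE 0.19, limma adjusted p = 0.328). Eps8, an EGFR substrate that acts on actin, was at 46.3 ± 1.70 in osimertinib lungs, 44.5 ± 2.96 in naphthalene lungs and 38.4 ± 1.17 in control lungs, and both treated groups lay wholly above control, by 0.26 in osimertinib lungs (SE 0.08, adjusted p = 0.626) and 0.21 in naphthalene lungs (SE 0.09, adjusted p = 0.639). Such a position was held by 2.91% of all genes in osimertinib lungs and 4.94% in naphthalene lungs. In the list of 18, 3 genes held it in osimertinib lungs and 2 in naphthalene lungs. Eps8 was named for its small p in both comparisons, so the shares are not its chance rate.

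The list of ERK feedback and output genes, which ERK signalling is known to induce, had 15 tested members of 17. Its medians were 0.165 in osimertinib against naphthalene, -0.277 in naphthalene against control and -0.0963 in osimertinib against control. Etv5, a transcription factor with the highest normalised value of the list (not per length), was at 165 ± 25.7 in osimertinib lungs, 155 ± 22.4 in naphthalene lungs and 136 ± 6.92 in control lungs, and is also in the list of alveolar type 2 markers. Egr1, an early response transcription factor, was at 13.5, 19.1, 11.1, 37.6 and 11.7 in osimertinib lungs, 57.1, 41.5 and 14.7 in naphthalene lungs and 40.7, 96.8 and 63.2 in control lungs. Every osimertinib library lay below every control library, where 3.43% of all genes did, and naphthalene 3 lay among the osimertinib libraries. The difference between osimertinib and control was -1.86 (SE 0.46, interval -2.86 to -0.86, limma adjusted p = 0.452). DESeq2 on the recovered reads called it (adjusted p = 0.0317), as did limma with libraries scaled to equal totals (adjusted p = 6.57e-05). The other alternatives, with limma or edgeR, gave adjusted p from 0.237 to 1. The difference was -1.83 with DESeq2 and -1.89 with equal totals, so its size hardly changed. In this comparison DESeq2 called 75 genes and equal totals 24, against 1 in the main fit. Why the adjusted p fell was not tested. Phlda1, a feedback gene of the receptor, was at 33.4 ± 7.07 in osimertinib lungs, 21.3 ± 3.13 in naphthalene lungs and 29.9 ± 6.33 in control lungs, and differed by 0.61 between osimertinib and naphthalene (SE 0.19, adjusted p = 0.300). Dusp4, a phosphatase of ERK, was at 7.59 ± 1.43 in osimertinib lungs, 6.59 ± 0.568 in naphthalene lungs and 9.49 ± 0.532 in control lungs, with -0.47 between naphthalene and control (SE 0.18, adjusted p = 0.610).

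**Figure D5:**
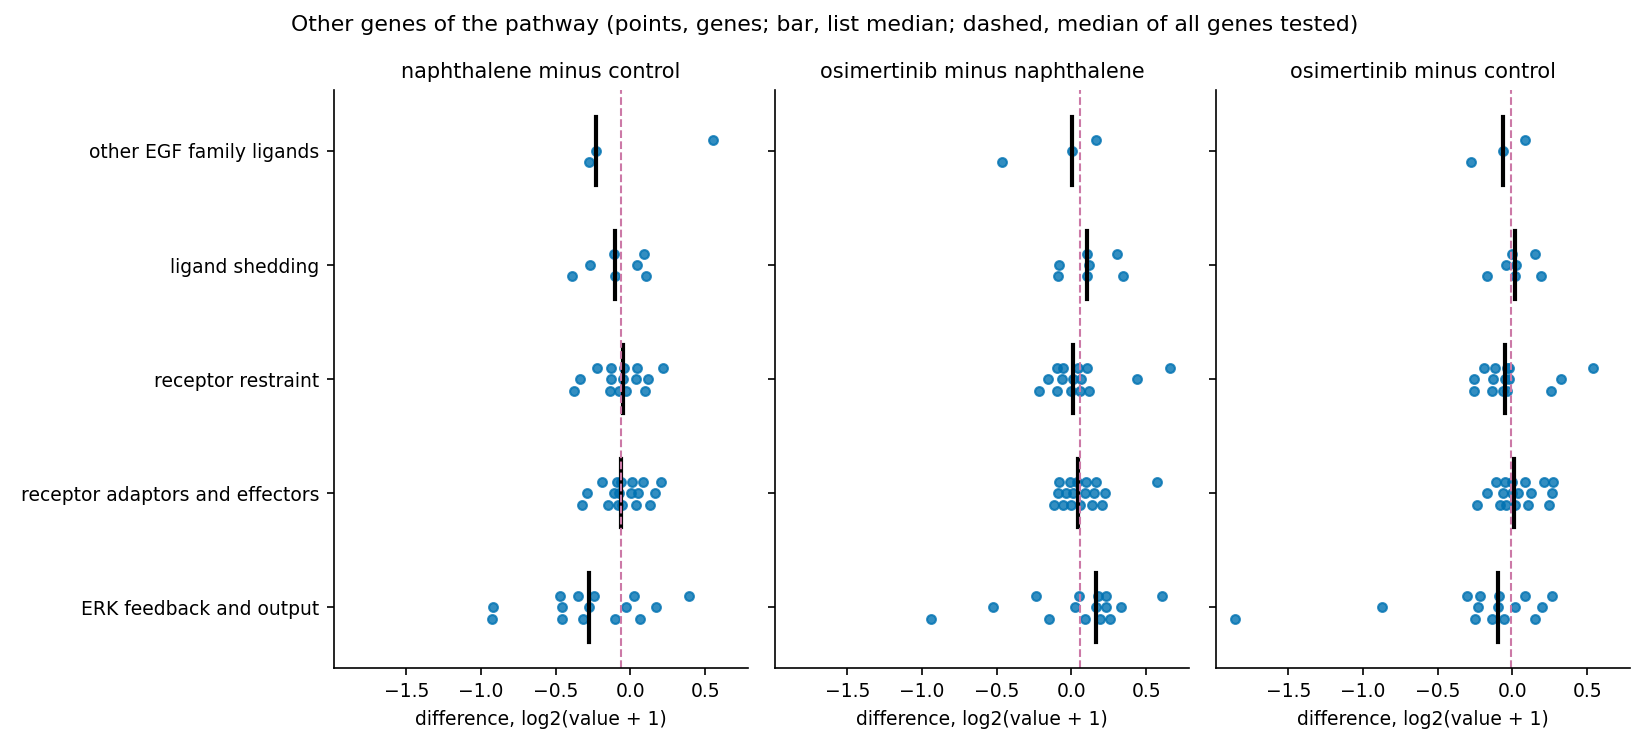
Difference in log2(value + 1) of each tested gene of the 5 other pathway lists in the 3 comparisons, with the list median as a black bar and the median of all genes tested as a dashed line. The point farthest to the left in osimertinib minus control is Egr1 (-1.86), and the list medians lie between -0.277 and 0.165.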

How the data were processed

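Total RNA of mouse lung was sequenced in 11 libraries with a directional kit after ribosomal RNA depletion, per the labels' protocols. Per the submitters' processing notes, the build was GRCm39 and the tools were edgeR, Bowtie2, Trimmomatic 0.38 and RSEM 1.3.0, with no roles or settings given. The deposited values are a signal, CPM of a library size scaled by a factor. All of them (100%) were whole multiples of 1 read within 0.01, so whole reads were recovered, and edgeR and DESeq2 on those reads were alternatives to the main test. Names, coordinates and lengths came from an earlier build (GRCm38, GENCODE M21), which named 23123 of 23255 IDs.

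Genes with a mean of at least 1 (16225) entered a single limma fit of the 3 groups (version 3.58.1 in R 4.3.3) on log2(value + 1), with a trend of variance on mean. P-values were adjusted by Benjamini-Hochberg over all of them, with a threshold of 0.05, and intervals are 95%. This scale understates differences of low genes. A count of 0 was read as up to 3 reads; such limits cover counting error only. The script was tested on simulated data.

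The members and lists were chosen with earlier results of these data known. From each list the text names the gene of highest mean value and, per comparison, the gene of smallest unadjusted p. For genes named by p, the share of all genes printed beside them is thus not a chance rate. Libraries of the same number correlated in their deviations from the group means by 0.122, 0.159 and 0.523 between osimertinib and naphthalene. Osimertinib 1 correlated more with naphthalene 2 (0.137), and osimertinib 2 more with naphthalene 1 (0.193). Against control, same-number correlations ran from -0.152 (osimertinib 3) to 0.203 (naphthalene 2). Neither the labels nor these values establish a pairing, so a block for the replicate number was run only as an alternative. Alternatives tried were no filter, pseudocounts of 0.1 and 5, a mean of 5, median-ratio and equal-total scaling, only the groups compared, the replicate block, a read-share term, edgeR 4.0.16, DESeq2 1.42.0 and each library left out. Leaving out osimertinib 2 and 3 together was chosen after seeing the data.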

Additional observations from a re-analysis of the deposited data

Results flagged for a closer look

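Among the 27 genes checked, 3 had a single osimertinib library far from the other 4, where chance alone gives about 1 in 20 groups checked. The number of groups checked is not given, so the 3 cannot be set against that rate. Cblc was also a gene named for its small p in these same data. Areg was 12.5 in osimertinib 3 and 2.99 to 4.60 in the other osimertinib lungs, a gap of 0.831 of the group's range. Cblc was 10.6 in osimertinib 3 and 4.73 to 6.11 in the others (0.766 of the range). Erbb4 was 0.611 in osimertinib 1, from 8 reads, and 0.178 to 0.266 in the others (0.797 of the range).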

How the results depend on the processing

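Under all alternatives run, limma, edgeR and DESeq2 called 0 of the members in each comparison, and the smallest adjusted p of a member was 0.173. Of 662 recomputed member differences, 620 kept their direction and side of the threshold (for untested members, moved by less than 1 SD), 24, of tested members, changed sign and 18, of untested members, moved further; the cause was not tested. Between osimertinib and naphthalene, sign changes of tested members were Erbb2 with DESeq2 (-0.00847) and Btc with equal totals (-0.165). Tgfa changed sign there without osimertinib 2 and 3 (0.116). Between naphthalene and control, they were Erbb2 with median-ratio scaling (0.0125), edgeR (0.0142) and DESeq2 (0.0238). Tgfa changed sign there with median-ratio scaling (0.0365), the read-share term (0.234) and edgeR (0.0318). Between osimertinib and control, they were Egfr with the replicate block (-0.134) and Tgfa without osimertinib 2 and 3 (0.0947). Erbb2 changed sign there with equal totals (-0.0127) and the read-share term (-0.0211). Rhbdf1, of the ligand shedding list and not a member, changed sign with the read-share term. It moved to -0.132 between osimertinib and naphthalene and 0.21 between naphthalene and control.

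With 1 library left out, Erbb2 ranged from -0.0214 to 0.118, Tgfa from -0.206 to 0.0176 and Btc from -0.177 to 0.917 between osimertinib and naphthalene. Erbb2 ranged from -0.115 to 0.0248 and Tgfa from -0.0966 to 0.114 between naphthalene and control. Egfr ranged from -0.0708 to 0.163 and Erbb2 from -0.0313 to 0.0514 between osimertinib and control. Equal totals moved the median gene by 1.12 between osimertinib and naphthalene, -1.47 between naphthalene and control and -0.348 between osimertinib and control, and member values are relative to it. Sign also changed in 8 differences of untested members, 5 of them with equal totals. There genes at or near 0 take on the opposite of that shift by construction. Those 5 were Ereg (-0.578) and Egf (-0.69) between osimertinib and naphthalene, and Egf (0.394), Ereg (1.29) and Erbb4 (0.775) between naphthalene and control. The others were Ereg with the read-share term (0.0197) and Erbb4 without naphthalene 3 (0.145) between naphthalene and control, and Egf without naphthalene 2 (-0.00702) between osimertinib and naphthalene.

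Over all genes, osimertinib against naphthalene gave 0 calls, 81 with equal totals, 1 with only the groups compared, 2 with the read-share term, 21 with DESeq2, 47 without osimertinib 2 and 3, and 0 to 11 with 1 library left out. Naphthalene against control gave 0 calls, 64 with equal totals, 21 with only the groups compared, 2 with the read-share term, 11 with DESeq2, 38 without osimertinib 2 and 3, and 0 to 12 with 1 library left out. Osimertinib against control gave 1 call, 24 with equal totals, 2 with the read-share term, 75 with DESeq2, 2 without osimertinib 2 and 3, 0 to 2 with 1 library left out, and 0 with the replicate block, which ended no other call and changed no member's. Of pathway genes named, Egr1 between osimertinib and control passed the threshold with equal totals and DESeq2 only. A mean of at least 5 dropped Areg and Btc. Depth limits Erbb4, Ereg and Egf most, since 3 reads are worth 0.794 to 1.38 in the libraries of high read share.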
